A study of Mus musculus with 48 samples.

Results

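Genes of protein folding and of the secretory pathway were examined in the caecum of mice given chicory, fructose, chlorogenic acid or sesquiterpene lactones. The members are the genes of the caecum array table whose symbols match the names of heat shock proteins and J proteins (Hsp, Dnaj), the cytosolic chaperonin (Cct2 to Cct8), protein disulphide isomerases, calreticulin and calnexin, the Sec, signal sequence receptor (Ssr), signal peptidase (Spcs) and signal recognition particle (Srp) families, the COPI coat, the Tmed cargo receptors, Xbp1, Atf4 and Atf6. The rule used names only and no measured value. It found 92 rows of the table, which collapsed to 65 genes of the 3779 tested. Sorted into classes, 18 are called cytosolic chaperones and 7 mitochondrial chaperones. Of the others, 9 fold proteins in the endoplasmic reticulum (ER), 16 belong to translocation and signal peptidase and 13 to vesicle coats and Tmed transport, which gives 38 ER and Golgi members, and 2 are the transcription regulators Atf4 and Xbp1. The class called cytosolic holds every J protein not placed in mitochondria or the ER, Dnajc8 and Dnajc9 included. Atf6 is not among the rows used here.

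Chaperones bind polypeptides that are not yet folded and release them in cycles of ATP hydrolysis. In the cytosol HSP70 proteins work with J proteins and hand many clients to HSP90 or to the chaperonin ring, and in mitochondria a separate HSP70 pulls in imported proteins, which the HSP60 chamber then folds. A secreted protein instead enters the ER through the Sec61 channel, loses its signal peptide to the signal peptidase, folds with the help of BiP, calnexin and disulphide isomerases, and leaves in COPII vesicles, while COPI vesicles return material from the Golgi. In gut epithelium this route carries mucins, digestive and antimicrobial proteins. Heat shock factor induces the cytosolic set, and the unfolded protein response, through Atf6, Xbp1 and Atf4, the set of the ER.

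RNA came from the caecum of 16 BALB/cOlaHsd mice, each on its own one-colour Agilent array, and the mice, 8 weeks old at the start, were gavaged daily with 500 µL for 30 days. Chic mice (n = 3) received a decoction of 30 mg of chicory root powder and Fru mice (n = 3) fructose, and both are set against Ctr1 (n = 2), given water. CGA mice (n = 3) received chlorogenic acid and STL mice (n = 3) sesquiterpene lactones, and both are set against Ctr2 (n = 2), which the series design places in another period. For Ctr2 the methods name DMSO in one passage and drinking water in another, and the sample labels give water. The period, the solvent and any other difference between the 2 series therefore cannot be told apart. The labels tag 8 of the 16 arrays as female (2 Fru, all CGA and all STL), while the source descriptions and the methods give male mice. As no Ctr2 array is tagged, the tag cannot be told apart from the diet in the CGA and STL comparisons. The Y-linked gene Eif2s3y had log2 values of 8.33 to 9.40 on the tagged arrays and 7.57 to 9.00 on the others. Values are log2 intensities after quantile normalisation between the 16 arrays, where a difference of 1 is a doubling. They are read as differences of 1 gene between arrays and not as levels of one gene against another. Within each group the mice are the replicates, and the small number of arrays limits the precision.

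The 16 arrays differed in brightness, with median intensities of 186 to 1687 before normalisation. A total of 4 arrays, Chic 3, Fru 2, CGA 2 and STL 3, had a median more than 0.5 (log2) below that of the typical array and are called dim here, with Fru 2 the weakest. All 11 listed markers of caecum epithelium were measured, among them Epcam (10.06 to 11.73), Cdh1 (9.54 to 11.01) and Krt8 (13.82 to 14.95). Of the Paneth cell list 4 of 13 genes were measured, and their summed level (log2 of the sum) ran from 11.32 to 15.72 in Ctr1, 11.07 to 15.44 in Chic, 11.22 to 14.74 in Fru, 14.39 to 15.41 in Ctr2, 11.00 to 12.09 in CGA and 10.29 to 15.55 in STL. Plasma cell markers (2 of 12 measured, Jchain and Mzb1) ran from 13.18 to 13.30 in Ctr1, 13.21 to 13.58 in Chic, 12.91 to 13.64 in Fru, 13.45 to 13.66 in Ctr2, 13.19 to 13.32 in CGA and 13.03 to 13.37 in STL. Ileum markers were Fabp6 and Slc10a2 (2 of 2 measured). Their sums ran from 10.32 to 13.23 in Ctr1, 8.44 to 12.565 in Chic and 9.49 to 11.97 in Fru. They ran from 11.56 to 12.865 in Ctr2, 10.04 to 10.47 in CGA and 9.94 to 12.07 in STL. Fabp6 had 6.44 on Ctr1 1 and 13.09 on Ctr1 2, where the Paneth gene Defa3 had 6.26 and 14.19 and Slc10a2 10.22 and 9.79. The part of ileum in the samples was not tested. In bulk tissue, fewer cells of a type and less RNA per cell cannot be told apart.

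Promoter sequences of 5 members whose values recur below are shown first, because the heat shock and the ER stress response act through short DNA motifs. Of the 65 members 53 have a promoter in the RefSeq table (build GRCm38.p6), and the window used is the 250 bases before the transcription start. The ER stress element (ERSE), spelled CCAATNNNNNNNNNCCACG, was found on either strand in 5 of the 53 members, Hspa5, Hsp90b1, Pdia6, Calr and Canx, all of the ER folding class, and in 0.113% of all 32851 promoters. Its last 5 letters, CCACG, which each ERSE contains, stood in 29 of the 53 members and in 28.3% of all promoters. The heat shock element (HSE), spelled GAANNTTC and searched on both strands, was found in 10 of the 53 members and in 6.69% of all promoters. A member counts if any of its promoters holds the motif, while the percentages are of single promoters. Among the members with an HSE, Dnaja1 has 3 promoters, and Cct2 and Hspd1 have 2 each. The windows follow 5′ to 3′ on the strand of the gene, with the motif in capitals.
Hspa5: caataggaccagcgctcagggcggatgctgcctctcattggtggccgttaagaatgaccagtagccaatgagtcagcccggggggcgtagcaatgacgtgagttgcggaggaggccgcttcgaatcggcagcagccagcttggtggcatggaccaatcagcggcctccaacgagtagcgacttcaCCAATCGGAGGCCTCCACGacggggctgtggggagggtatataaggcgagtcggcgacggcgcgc
Hsp90b1: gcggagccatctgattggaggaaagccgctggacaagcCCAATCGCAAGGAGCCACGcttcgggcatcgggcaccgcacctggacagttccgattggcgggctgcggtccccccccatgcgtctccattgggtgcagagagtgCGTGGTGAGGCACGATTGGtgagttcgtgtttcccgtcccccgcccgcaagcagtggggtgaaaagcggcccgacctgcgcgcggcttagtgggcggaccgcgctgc
Pdia6: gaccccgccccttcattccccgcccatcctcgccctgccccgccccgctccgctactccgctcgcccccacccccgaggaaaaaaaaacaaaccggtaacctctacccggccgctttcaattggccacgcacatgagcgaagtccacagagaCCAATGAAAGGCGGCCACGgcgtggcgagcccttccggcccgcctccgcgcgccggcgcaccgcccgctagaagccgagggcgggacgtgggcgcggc
Dnaja1: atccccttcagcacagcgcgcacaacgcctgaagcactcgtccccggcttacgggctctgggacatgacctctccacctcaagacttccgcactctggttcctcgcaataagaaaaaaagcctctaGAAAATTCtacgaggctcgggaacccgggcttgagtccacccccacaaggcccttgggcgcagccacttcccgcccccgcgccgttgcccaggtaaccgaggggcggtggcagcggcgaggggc
Hspb1: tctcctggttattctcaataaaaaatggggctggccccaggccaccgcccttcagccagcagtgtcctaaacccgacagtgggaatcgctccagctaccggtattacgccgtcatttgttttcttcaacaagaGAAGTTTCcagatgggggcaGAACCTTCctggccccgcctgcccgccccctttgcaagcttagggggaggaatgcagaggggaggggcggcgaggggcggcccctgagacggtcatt
They lie at chr2:34771840-34772089 (plus strand) for Hspa5, which encodes BiP, the HSP70 of the ER, at chr10:86705445-86705694 (minus strand) for Hsp90b1, the HSP90 of the ER, and at chr12:17266339-17266588 (plus strand) for Pdia6, a disulphide isomerase. Those of Dnaja1, a cytosolic J protein, and of Hspb1, a small heat shock protein, lie at chr4:40722218-40722467 and chr5:135887669-135887918, both on the plus strand. Hspa5 has its ERSE 65 to 47 bases before the start, Pdia6 98 to 80, and Hsp90b1 has 2, at 212 to 194 in the forward and 107 to 89 in the reverse orientation. Dnaja1 has its HSE 124 to 117 bases before the start, and Hspb1 has 2, at 117 to 110 and 97 to 90. A match describes these letters and is not a measured binding site.

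Over all members the median log2 fold change was 0.07 for Chic, 0.13 for Fru, −0.09 for CGA and −0.10 for STL. The highest value of a single member was 1.61, 1.68, 2.76 and 2.69 in the same order. No member passed an adjusted p under 0.05 in limma (moderated test, Benjamini-Hochberg over 3779 genes) in any comparison. Over all genes 0% passed for Chic against Ctr1, 0.0265% for Fru against Ctr1, 0% for CGA against Ctr2, 0% for STL against Ctr2, 0% for Ctr2 against Ctr1, 0% for Fru against Chic and 0% for STL against CGA. At an unadjusted p under 0.05 members were higher in 2 cases for Chic (1.8% of all genes), 7 for Fru (4.5%), 2 for CGA (2.83%), 2 for STL (2.3%) and 10 for Ctr2 against Ctr1 (3.65%). They were lower in 0 cases for Chic (0.953% of all genes), 0 for Fru (2.62%), 0 for CGA (0.635%), 1 for STL (0.556%) and 2 for Ctr2 against Ctr1 (2.38%). Of 65 genes, the counts higher in Fru and in Ctr2 stand above the shares of all genes, and the others rest on 2 genes or fewer. Without the 4 dim arrays the counts higher were 4 for Chic (2.43% of all genes), 11 for Fru (4.26%), 0 for CGA (3.7%), 2 for STL (3.31%) and 11 for Ctr2 (5.24%). The counts lower were then 0 (2.3% of all genes), 0 (3.33%), 3 (1.38%), 6 (2.51%) and 1 (3.33%) in the same order. In that setting 1 member, Hspa9, passed the adjusted threshold for Chic, as did 0.0529% of all genes.

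**Figure D1:**
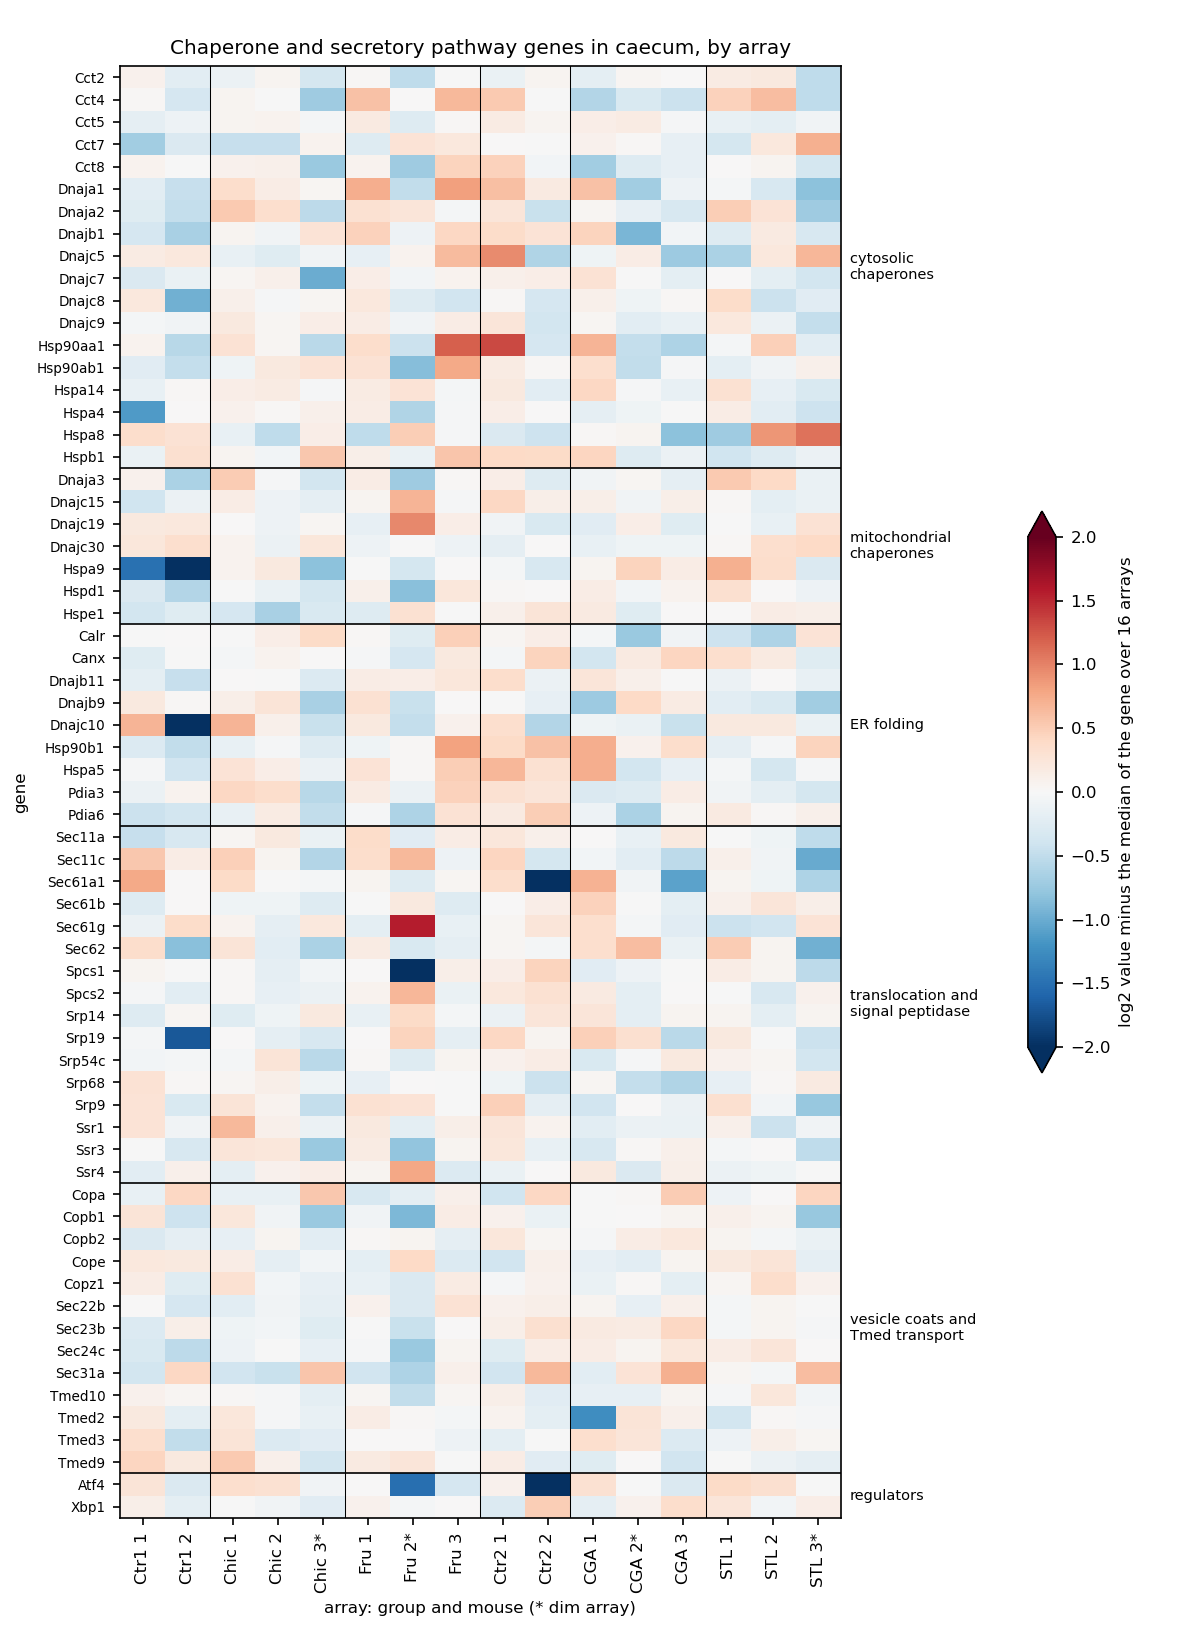
Heat map of the 65 genes (rows, by class) on the 16 arrays (columns, by group and mouse, dim arrays starred); colour is the log2 value minus the median of the gene, cut at 2 in both directions. Most cells are pale, and the darkest are single arrays, such as Sec61a1 and Atf4 on Ctr2 2, Spcs1 on Fru 2 and Dnajc10 on Ctr1 2, while Hspa9 is dark on both Ctr1 arrays.

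By class, chaperones of the cytosol and of the ER lay mostly above the control under Chic and Fru and mostly below it under CGA and STL. Against Ctr1, 12 of 18 cytosolic chaperones had a positive log2 fold change under Chic (median 0.17) and 14 of 18 under Fru (0.25), beside medians over all genes of 0.03 and 0.01. Of the 9 ER folding genes 8 were positive under Chic and 8 under Fru, with medians of 0.24 and 0.28. Against Ctr2 the same class had 8 of 9 genes negative under CGA (median −0.13) and 8 under STL (−0.31). Cytosolic chaperones were negative in 15 of 18 under CGA (−0.12) and 14 of 18 under STL (−0.12), with medians over all genes of 0.04 and 0.03. Vesicle coat and Tmed genes stayed near 0 in all 4 diets, with medians of −0.04, −0.06, 0.02 and 0.07 for Chic, Fru, CGA and STL. In the same order the 16 genes of translocation and signal peptidase had medians of 0.00, 0.11, −0.13 and −0.25, and the 7 mitochondrial chaperones 0.21, 0.27, 0.00 and 0.24. Without the dim arrays the medians, again for Chic, Fru, CGA and STL, were 0.32, 0.51, −0.17 and −0.22 for ER folding and 0.21, 0.30, −0.06 and −0.13 for the cytosolic chaperones, of which 11 of 18 were then negative under STL. They were 0.02, 0.02, −0.07 and −0.05 for translocation and signal peptidase and 0.03, 0.05, 0.04 and −0.02 for coats and Tmed, where the sign turned for Chic, Fru and STL. For the mitochondrial chaperones they were 0.27, 0.27, −0.04 and 0.15. These are descriptions of the lists, and no test was made of a class.

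**Figure D2:**
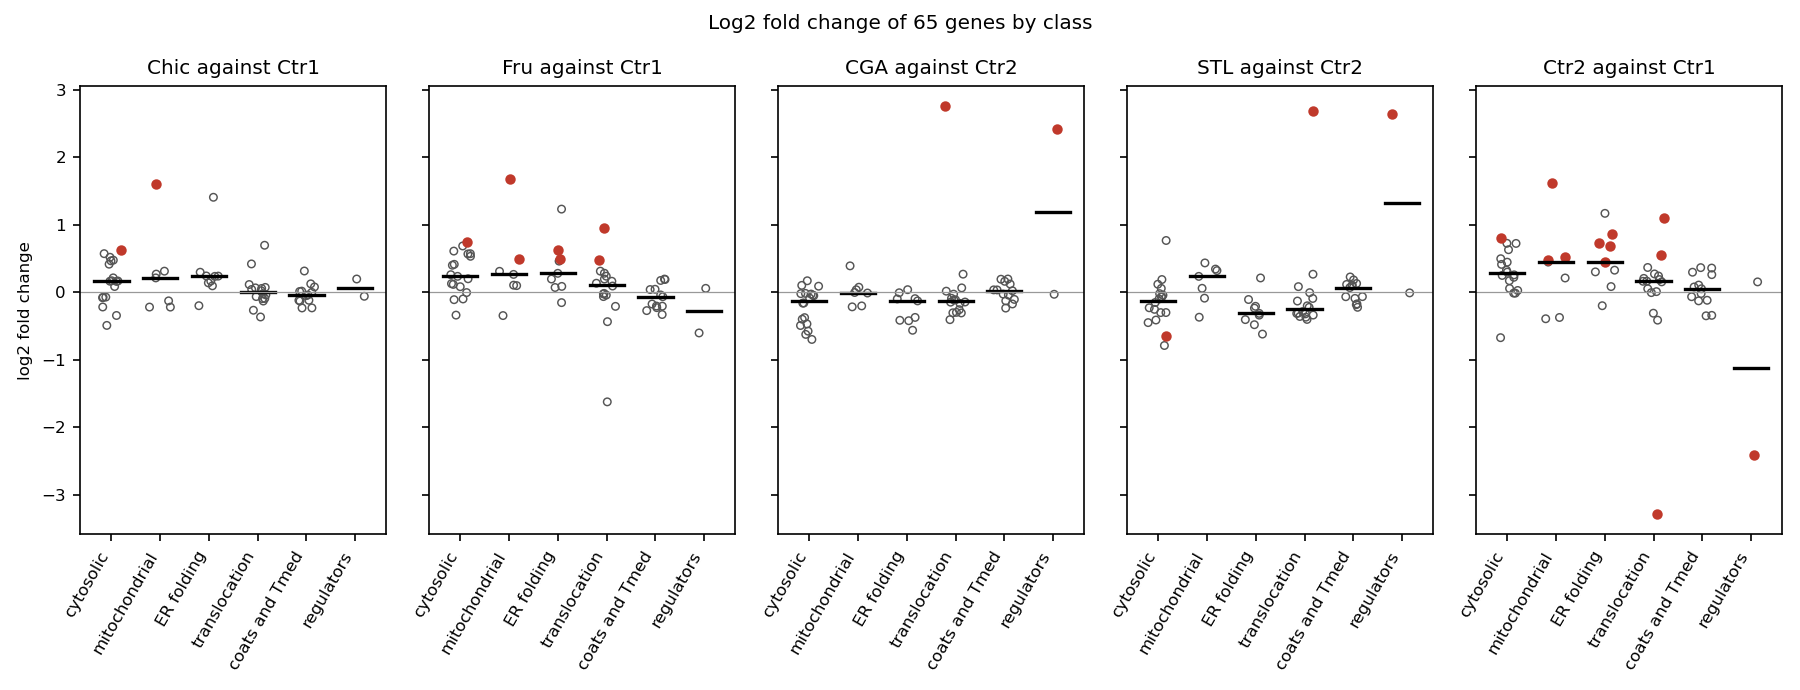
Log2 fold change of the 65 genes by class, 1 panel per comparison; each point is a gene, red where the unadjusted p is under 0.05, and the bar is the class median. Medians of the cytosolic and ER folding classes lie above 0 for Chic, Fru and Ctr2 against Ctr1 and below 0 for CGA and STL against Ctr2, and few genes lie far from their class.

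The control groups differed from each other in the same classes. In Ctr2 against Ctr1, 15 of 18 cytosolic chaperones (median 0.28), 8 of 9 ER folding genes (0.45) and 48 of all 65 members (0.21) were higher on average in Ctr2, with a median over all genes of 0.05. Summed markers of other cell types also set Ctr1 apart. Those of liver cells (3 of 4 measured, Alb, Apoa2 and Serpina1a) ran from 11.03 to 11.65 in Ctr1, 9.50 to 11.41 in Chic, 8.57 to 10.21 in Fru, 8.55 to 9.37 in Ctr2, 8.66 to 9.23 in CGA and 8.57 to 9.22 in STL. Those of enteroendocrine cells (2 of 7 measured, Chgb and Gcg) ran from 10.36 to 10.75 in Ctr1, 9.97 to 10.50 in Chic, 9.74 to 10.24 in Fru, 9.99 to 10.31 in Ctr2, 9.60 to 10.53 in CGA and 9.95 to 10.12 in STL. Those of goblet cells (8 of 8 measured) ran from 16.22 to 16.48 in Ctr1, 16.17 to 16.40 in Chic, 15.81 to 16.21 in Fru, 16.14 to 16.27 in Ctr2, 15.93 to 16.23 in CGA and 15.98 to 16.10 in STL. Both sums of liver and of enteroendocrine cells in Ctr1 lay above all of Ctr2 and Fru, and those of goblet cells in Ctr1 above all of Fru. Neither enteroendocrine gene separated Ctr1 from Ctr2 by itself. Chgb had 8.98 on Ctr1 2 and 9.11 on Ctr2 2, and Gcg 9.35 on Ctr1 1 and 9.49 on Ctr2 2. Plasma cell sums lay higher in Ctr2 than in Ctr1, though Mzb1 alone overlapped (8.51 and 9.04 in Ctr1, 8.98 and 9.44 in Ctr2). The part of all these markers in the differences was not tested. Chic and Fru share Ctr1, and CGA and STL share Ctr2, so the values of a control enter both comparisons of its series. With Ctr1 and Ctr2 taken as a single control group of 4 mice, the medians of the ER folding class were −0.05, 0.05, −0.06 and 0.02 for Chic, Fru, CGA and STL, and those of the cytosolic chaperones 0.00, 0.13, −0.02 and −0.03. The ER folding median thus had the opposite sign for Chic and for STL with pooled controls.

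The same was seen per array. The ER folding class, as the median deviation of its genes from their 16-array mean, stood at −0.13 and −0.28 on the Ctr1 arrays and at 0.27 and 0.22 on those of Ctr2, with no overlap. All 3 CGA arrays (0.00, −0.04 and 0.13) lay between these control groups. All 3 STL arrays (−0.10, −0.14 and −0.11) lay below Ctr2, and STL 2 lay within the range of Ctr1. Under Chic the values were 0.03, 0.18 and −0.27 and under Fru 0.15, −0.20 and 0.37, where the lowest of each is the dim array and overlaps Ctr1. The cytosolic class had −0.18 and −0.10 in Ctr1 and 0.09, 0.08 and 0.00 under Chic, which do not overlap, and 0.20, −0.12 and 0.23 under Fru, which do. In Ctr2 it had 0.25 and 0.05, in CGA 0.15, −0.10 and −0.12 and in STL 0.01, 0.06 and −0.28, which overlap.

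**Figure D3:**
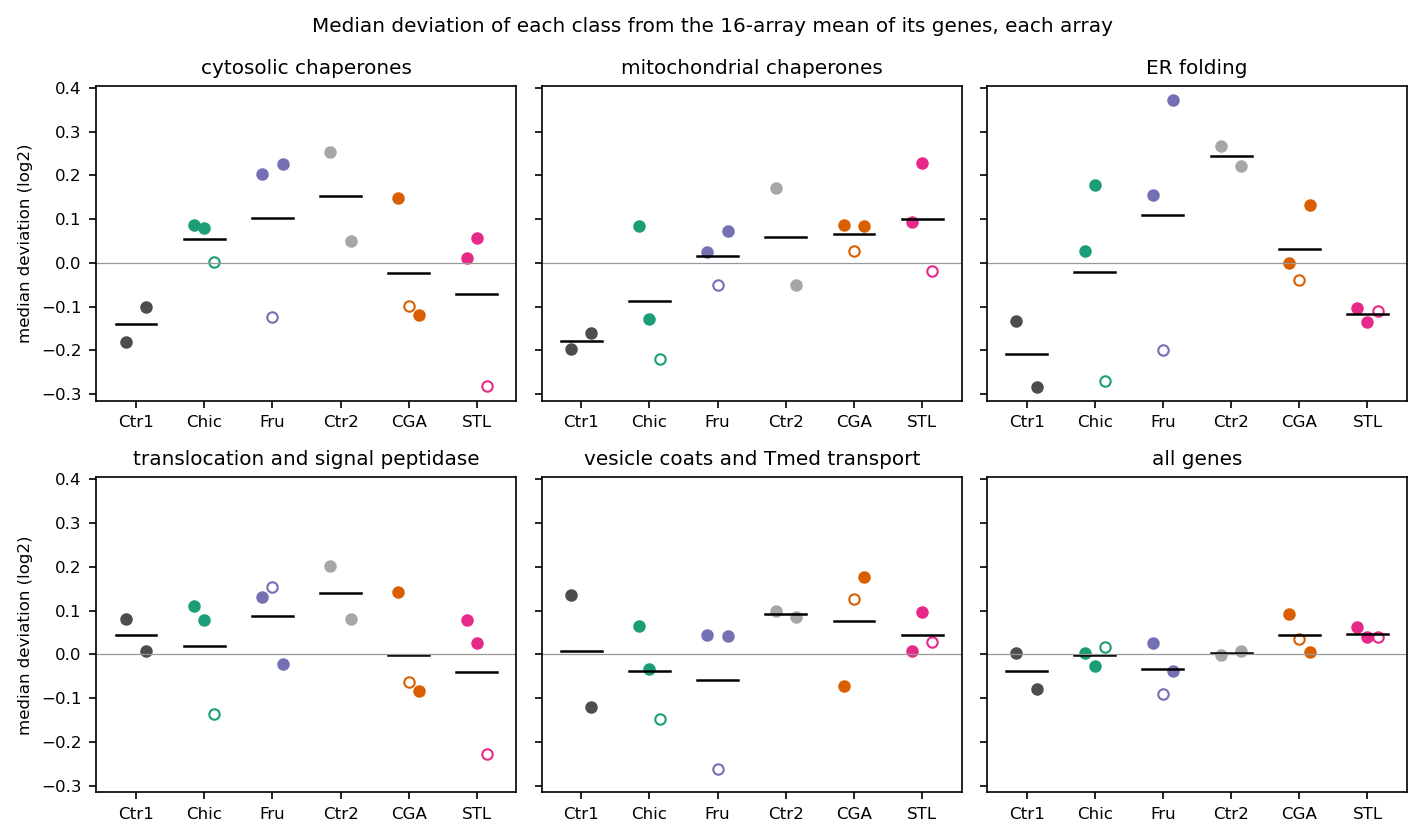
Median deviation (log2) of each class, and of all genes, from the 16-array mean of its genes; each point is 1 array, open for the dim arrays, and the bar is the group mean. ER folding is low on both Ctr1 arrays and high on both Ctr2 arrays (−0.28 to 0.27), while the deviation of all genes stays within −0.09 to 0.09.

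The cytosolic members were also set against the ER and Golgi members. Their median log2 fold changes were 0.17 and 0.02 under Chic, a shift of 0.15, and 0.25 and 0.08 under Fru, a shift of 0.17. Under CGA the shift was −0.02 and under STL 0.05, and for Ctr2 against Ctr1 it was 0.11. Taken per array, the difference of the class medians had a within-group SD of 0.112 (16 arrays in 6 groups), so the shifts of CGA and STL were smaller than 1 such SD. Arrays of Chic had 0.00, 0.03 and 0.17 and those of Fru 0.13, 0.04 and 0.14, all above the Ctr1 values of −0.21 and −0.03. Without Ctr1 replicate 1 the shift was −0.03 for Chic and 0.04 for Fru.

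Among single members Hspa9 stood out. It encodes mortalin, the HSP70 of mitochondria and the motor of protein import. Its log2 values were 9.36 and 8.75 in Ctr1, 10.92, 11.04 and 10.03 in Chic, 10.84, 10.50 and 10.86 in Fru, 10.82 and 10.53 in Ctr2, 10.90, 11.30 and 11.00 in CGA and 11.57, 11.20 and 10.56 in STL. Both Ctr1 mice lay below all 14 other mice. This was so for 2.41% of all genes and for 2 members, Hspa9 and Hsp90b1. The log2 fold change was 1.61 (SE 0.33, adjusted p = 0.578 in limma) for Chic and 1.68 (SE 0.33, adjusted p = 0.261) for Fru. Ctr2 against Ctr1 gave 1.62 (SE 0.37, adjusted p = 0.395), while CGA and STL against Ctr2 gave 0.39 and 0.44 (both SE 0.33).

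The study's threshold is a fold over 2 or under 0.5 of the control mean in single mice, and as its methods give no number of mice it was read here as all 3. By this reading Hspa9 under Fru was the 1 member to pass, with ratios of 3.38, 2.67 and 3.43. Over all genes 0.132% passed that threshold for Chic, 0.926% for Fru, 0.9% for CGA and 0.476% for STL. Before normalisation the intensities of Hspa9 were 971 and 399 in Ctr1, which overlapped those of the dim arrays Chic 3 (777) and Fru 2 (332). The lowest intensity of any spot was 300 on Ctr1 2, near the 399 of Hspa9, and 35 on Ctr1 1. For Chic the log2 fold change was 1.88 without the 4 dim arrays (adjusted p = 0.0225 in limma), 1.84 with array weights (0.0253) and 1.92 without Ctr1 replicate 1 (0.049), and the adjusted p stayed over 0.05 under every other alternative run. The log2 fold change was 0.80 with pooled controls and 1.30 without Ctr1 replicate 2. For Fru the adjusted p was under 0.05 only without Ctr1 replicate 1, where it was 0.0357. The Fru log2 fold change was 0.87 with pooled controls, 1.37 without Ctr1 replicate 2 and 1.10 before normalisation.

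The other mitochondrial chaperones differed less. Dnajc15, a J protein of the inner membrane, had 9.77 and 10.05 in Ctr1, 10.31, 10.06 and 9.99 in Chic, 10.22, 10.85 and 10.15 in Fru, 10.58 and 10.28 in Ctr2, 10.28, 10.09 and 10.28 in CGA and 10.19, 9.97 and 10.03 in STL. All Fru mice lay above Ctr1, the highest being the dim array, with a log2 fold change of 0.50 (SE 0.22, adjusted p = 0.665 in limma), and all STL mice lay below Ctr2 (−0.37, SE 0.22). Dnajc30, another mitochondrial J protein, had 8.72 and 8.84 in Ctr1, 8.56, 8.38 and 8.73 in Chic, 8.40, 8.50 and 8.40 in Fru, 8.31 and 8.50 in Ctr2, 8.36, 8.42 and 8.41 in CGA and 8.52, 8.84 and 8.89 in STL. Here all Fru mice lay below Ctr1 (−0.34, SE 0.17) and all STL mice above Ctr2 (0.34, SE 0.17). Hspd1, the HSP60 chamber, had log2 fold changes of 0.27, 0.27, 0.04 and 0.06 for Chic, Fru, CGA and STL. Hspe1, its lid, had −0.13, 0.31, −0.20 and −0.09 in the same order. A second Hspe1 probe of similar mean (11.58 against 11.59) gave 0.06, 0.59, 0.04 and 0.05. The 2 probes thus differed in sign for Chic, CGA and STL.

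Of the cytosolic chaperones Dnajb1, an inducible J protein of the heat shock response, had 10.81 and 10.50 in Ctr1, 11.20, 11.07 and 11.42 in Chic, 11.60, 11.04 and 11.56 in Fru, 11.50 and 11.41 in Ctr2, 11.59, 10.23 and 11.08 in CGA and 10.88, 11.32 and 10.83 in STL. Every Chic and Fru value exceeded those of Ctr1, with log2 fold changes of 0.57 (SE 0.32) and 0.74 (SE 0.32, adjusted p = 0.665 in limma), and all STL mice lay below both Ctr2 mice (−0.45, SE 0.32). Dnaja1, whose promoter is printed above, had 11.20 and 10.97 in Ctr1, 11.77, 11.57 and 11.47 in Chic, 12.15, 10.93 and 12.23 in Fru, 12.02 and 11.60 in Ctr2, 12.00, 10.72 and 11.31 in CGA and 11.37, 11.10 and 10.59 in STL. Its groups did not overlap for Chic (0.52, SE 0.40) and STL (−0.79, SE 0.40), and the lowest values of Fru, CGA and STL were those of the dim arrays.

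Hspb1, the small heat shock protein, was the 1 member lower at an unadjusted p under 0.05 in a diet. It had 10.75 and 11.21 in Ctr1, 10.94, 10.83 and 11.42 in Chic, 11.00, 10.75 and 11.43 in Fru, 11.28 and 11.27 in Ctr2, 11.31, 10.62 and 10.78 in CGA and 10.48, 10.62 and 10.77 in STL. All STL mice lay below Ctr2, with a log2 fold change of −0.65 (SE 0.26, adjusted p = 0.999 in limma), while the other diets overlapped their control. Hsp90aa1, the inducible cytosolic HSP90, had the widest spread within groups of its class, a SD of 0.673, with 11.79 and 10.14 on the Ctr2 arrays, and each diet overlapped its control. Hsp90ab1, the constitutive HSP90, had 12.84 and 12.60 in Ctr1 and 12.98, 13.27 and 13.35 in Chic (0.48, SE 0.36), with no overlap.

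Hspa4, an HSP110 that exchanges nucleotide on HSP70, was with Hspa9 the other member at an unadjusted p under 0.05 for Chic, and it rested on 1 control mouse. It had 9.41 and 10.54 in Ctr1, 10.63, 10.56 and 10.65 in Chic, 10.68, 9.94 and 10.51 in Fru, 10.67 and 10.55 in Ctr2, 10.35, 10.46 and 10.54 in CGA and 10.69, 10.33 and 10.13 in STL. The log2 fold change for Chic was 0.64 (SE 0.29, adjusted p = 1.00 in limma), and 0.07 without Ctr1 replicate 1. Of the chaperonin subunits, Cct4 had 8.94 and 8.59 in Ctr1, 8.97, 8.90 and 8.20 in Chic, 9.50, 8.93 and 9.56 in Fru, 9.44 and 8.91 in Ctr2, 8.33, 8.62 and 8.48 in CGA and 9.39, 9.54 and 8.40 in STL. Cct8 had 9.89 and 9.80 in Ctr1, 9.90, 9.92 and 9.07 in Chic, 9.88, 9.10 and 10.26 in Fru, 10.27 and 9.76 in Ctr2, 9.12, 9.56 and 9.65 in CGA and 9.83, 9.87 and 9.45 in STL. For both, all CGA mice lay below both Ctr2 mice, with log2 fold changes of −0.70 (SE 0.34) and −0.57 (SE 0.34). The other chaperonin members, Cct2, Cct5 and Cct7, had −0.02, −0.03 and −0.02 for CGA.

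Hspa8, the constitutive HSP70 of the cytosol, has 3 probes that did not move together. The probe with the highest mean had 12.63 and 12.56 in Ctr1, 12.13, 11.77 and 12.42 in Chic, 11.76, 12.76 and 12.26 in Fru, 11.99 and 11.86 in Ctr2, 12.30, 12.34 and 11.46 in CGA and 11.56, 13.16 and 13.36 in STL. Its log2 fold changes were −0.49, −0.34, 0.10 and 0.77 for Chic, Fru, CGA and STL, while the second probe had 0.01, 0.09, −0.26 and −0.61 and the third −0.29, 0.75, −0.79 and −0.44. No direction is given for this gene. In all, 8 members have more than 1 probe, and all probes of a gene had the same sign in 4 of the 8 for Chic, 6 for Fru, 3 for CGA and 5 for STL.

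In the ER, Hspa5, Hsp90b1 and Pdia6 have an ERSE in the windows printed above. Hspa5 had 11.69 and 11.33 in Ctr1, 11.99, 11.84 and 11.60 in Chic, 11.99, 11.73 and 12.21 in Fru, 12.37 and 12.02 in Ctr2, 12.44, 11.34 and 11.55 in CGA and 11.68, 11.37 and 11.69 in STL. All Fru mice lay above Ctr1 (0.46, SE 0.29), and all STL mice below Ctr2 (−0.62, SE 0.29, adjusted p = 0.999 in limma). Hsp90b1 had 11.28 and 11.06 in Ctr1, 11.41, 11.53 and 11.29 in Chic, 11.47, 11.57 and 12.36 in Fru, 11.94 and 12.14 in Ctr2, 12.28, 11.63 and 11.91 in CGA and 11.37, 11.54 and 12.00 in STL. Both Ctr1 mice were the lowest of all 16, and the log2 fold change was 0.24 (SE 0.28) for Chic, 0.63 (SE 0.28, adjusted p = 0.665 in limma) for Fru and 0.87 (SE 0.30, adjusted p = 0.761) for Ctr2.

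Pdia6 had 11.16 and 11.22 in Ctr1, 11.44, 11.76 and 11.10 in Chic, 11.56, 10.98 and 11.88 in Fru, 11.77 and 12.08 in Ctr2, 11.49, 10.96 and 11.64 in CGA and 11.76, 11.62 and 11.69 in STL. All CGA and all STL mice lay below both Ctr2 mice, with log2 fold changes of −0.56 (SE 0.28) and −0.23 (SE 0.28), STL by the smaller margin. Calr and Canx, the lectin chaperones calreticulin and calnexin, had log2 fold changes of 0.17 and 0.14 for Chic, 0.09 and 0.07 for Fru, −0.37 and −0.13 for CGA and −0.34 and −0.11 for STL. Over the 5 ERSE genes the sign was positive in 5 of 5 for Chic (median 0.24), Fru (0.28) and Ctr2 against Ctr1 (0.69), and negative in 5 of 5 for CGA (−0.37) and STL (−0.34). Without the dim arrays 1 of 5 was positive for CGA and 1 of 5 for STL, with medians of −0.17 and −0.57. With pooled controls the medians were −0.05, 0.05, −0.08 and 0.03 for Chic, Fru, CGA and STL. The 10 genes with an HSE, which mix cytosolic, mitochondrial and ER and Golgi members, had medians of 0.08, 0.11, −0.12 and −0.18 under the own control.

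**Figure D4:**
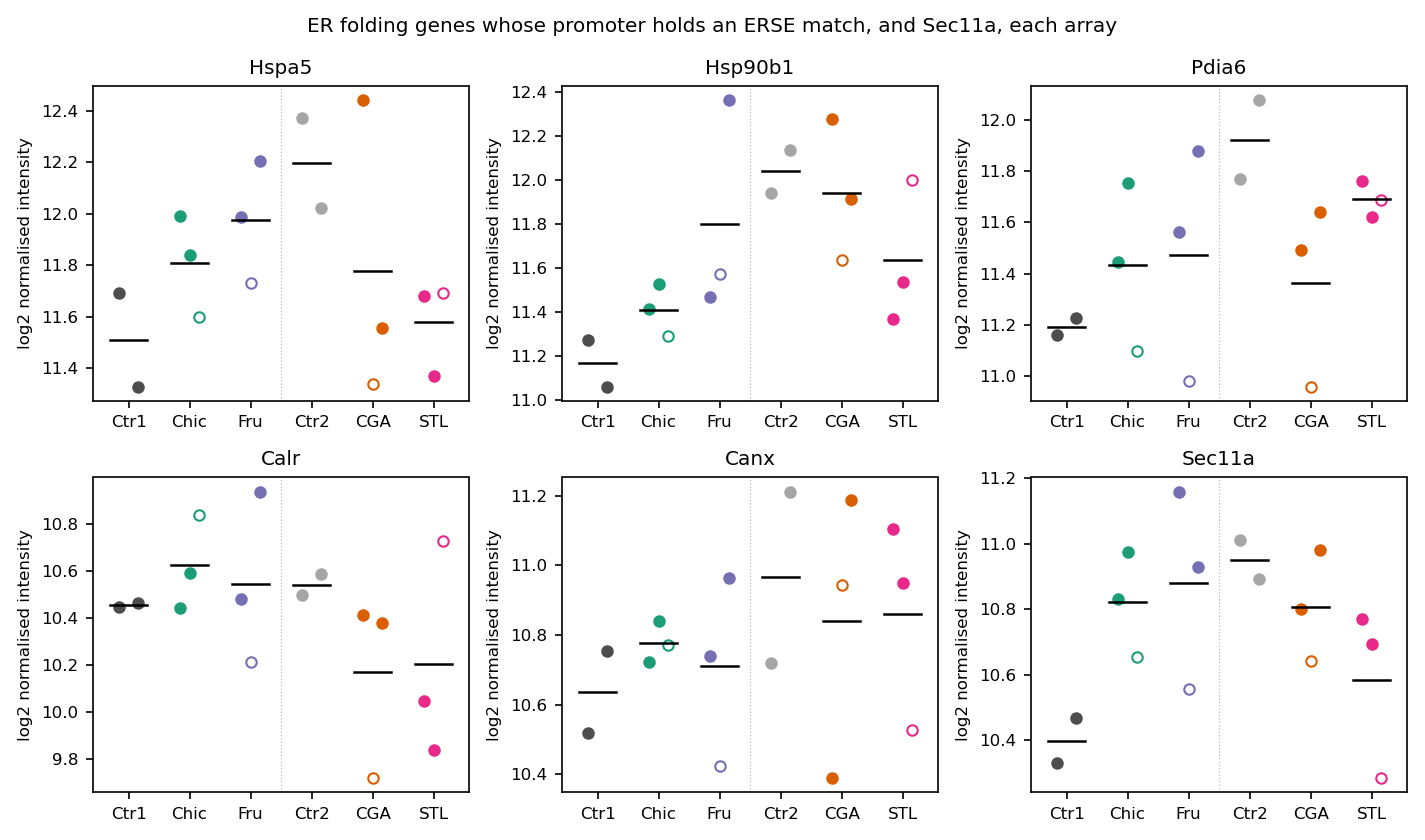
Log2 normalised intensity of the 5 ER folding genes with an ERSE match and of Sec11a on each array, by group; open points are dim arrays and bars are group means, and each panel has its own axis. For Hspa5, Hsp90b1 and Pdia6 both Ctr2 arrays lie above both Ctr1 arrays, and the diet arrays spread between and around them.

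Dnajb11, the J protein that partners BiP, had 9.60 and 9.33 in Ctr1, 9.80, 9.79 and 9.52 in Chic, 9.94, 9.93 and 10.02 in Fru, 10.15 and 9.69 in Ctr2, 10.04, 9.90 and 9.79 in CGA and 9.69, 9.80 and 9.65 in STL. Every Fru value exceeded the Ctr1 values, with a log2 fold change of 0.50 (SE 0.18, adjusted p = 0.610 in limma), and CGA and STL overlapped Ctr2. Pdia3, a disulphide isomerase of glycoproteins, had 9.84 and 9.78 in Ctr2, above all CGA mice (9.24, 9.27 and 9.68) and all STL mice (9.47, 9.33 and 9.19), with log2 fold changes of −0.41 and −0.48 (both SE 0.27). The Paneth cell sums given above were lower in all 3 CGA mice than in both Ctr2 mice as well. So were the ileum sums, at 10.04 to 10.47 in CGA against 11.56 to 12.865 in Ctr2. Plasma cell sums were higher in both Ctr2 mice, above Ctr1 and above every CGA and STL mouse. These sums mainly follow Jchain, whose values are the larger. Mzb1 alone overlapped, with 8.98 and 9.44 in Ctr2, 9.04 on Ctr1 2, 9.39 on CGA 1 and 9.47 on STL 3. The part of Paneth cells, of ileum and of plasma cells in these differences was not tested.

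Sec11a, a catalytic subunit of the signal peptidase, had 10.33 and 10.47 in Ctr1, 10.83, 10.97 and 10.65 in Chic, 11.16, 10.56 and 10.93 in Fru, 11.01 and 10.89 in Ctr2, 10.80, 10.64 and 10.98 in CGA and 10.77, 10.69 and 10.28 in STL. Every Chic and Fru value exceeded those of Ctr1. The log2 fold change was 0.42 (SE 0.21, adjusted p = 1.00 in limma) for Chic and 0.48 (SE 0.21, adjusted p = 0.665) for Fru. Against Ctr2 it was −0.14 (SE 0.21) for CGA and −0.37 (SE 0.21, adjusted p = 0.999) for STL, where all 3 mice lay below. Ctr2 against Ctr1 gave 0.55 (SE 0.23, adjusted p = 0.803). A second Sec11a probe gave 0.04, 0.39, −0.17 and −0.32 for Chic, Fru, CGA and STL. Before normalisation the difference for Fru was −0.07, and with pooled controls that for CGA was 0.13. Its paralogue Sec11c, a member of the same class, was not higher under Chic or Fru. The group means of Sec11c were 9.19 in Ctr1, 8.83 in Chic and 9.15 in Fru. They were 8.89 in Ctr2, 8.59 in CGA and 8.53 in STL.

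Groups of 3 against 2 mice often separated without passing a test. All mice of the diet lay above both controls for 10 members under Chic (9.21% of all genes), 11 under Fru (10.4%), 1 under CGA (11.4%) and 1 under STL (11.2%). All lay below both controls for 5 members under Chic (6.54% of all genes), 2 under Fru (7.83%), 9 under CGA (6.91%) and 15 under STL (6.06%). Both Ctr2 mice lay above both Ctr1 mice for 26 members (19.9% of all genes) and below for 7 (13.7%). As shares of the 65 members, the counts above under Chic, Fru and Ctr2 and below under Chic, CGA and STL exceeded those of all genes, by the least for the genes below under Chic, and the other counts were under them.

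Several of the largest log2 fold changes rested on a single array. Atf4, a regulator of the integrated stress response, had 12.14 and 11.60 in Ctr1, 12.21, 12.19 and 11.81 in Chic, 11.89, 10.37 and 11.55 in Fru, 11.97 and 6.96 in Ctr2, 12.19, 11.87 and 11.60 in CGA and 12.27, 12.20 and 11.88 in STL. The value on Ctr2 2 came from an intensity of 149, where the other arrays that were not dim had 2902 to 6811. Its log2 fold changes of 2.42 for CGA (SE 0.95) and 2.65 for STL (SE 0.95, adjusted p = 0.999 in limma) became −0.08 and 0.15 without Ctr2 replicate 2. Without Ctr2 replicate 1, which leaves that array as the only Ctr2 mouse, they were 4.95 and 5.18, with an adjusted p under 0.05.

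Sec61a1, the pore subunit of the translocon, followed the same course. It had 10.80 and 10.04 in Ctr1, 10.42, 10.04 and 10.01 in Chic, 10.09, 9.79 and 10.09 in Fru, 10.40 and 3.88 in Ctr2, 10.74, 9.97 and 8.98 in CGA and 10.10, 9.95 and 9.43 in STL, and the value on Ctr2 2 came from an intensity of 2. The log2 fold changes of 2.76 (SE 1.22) for CGA and 2.69 (SE 1.22, adjusted p = 0.999 in limma) for STL became −0.50 and −0.57 without that array and 6.18 and 6.12 without the other Ctr2 mouse. Spcs1, a small subunit of the signal peptidase complex, had 10.98 and 10.91 in Ctr1, 10.95, 10.75 and 10.87 in Chic, 10.93, 5.99 and 11.05 in Fru, 11.06 and 11.37 in Ctr2, 10.70, 10.82 and 10.92 in CGA and 11.08, 10.98 and 10.39 in STL. Its value on Fru 2 came from an intensity of 6 and gave −1.62 (SE 1.04) for Fru. Dnajc10, an ER reductase, had 9.57 and 5.62 in Ctr1, 9.58, 9.00 and 8.44 in Chic, 9.09, 8.42 and 8.98 in Fru, 9.23 and 8.30 in Ctr2, 8.81, 8.76 and 8.45 in CGA and 9.09, 9.09 and 8.76 in STL. Its intensity of 302 on Ctr1 2 stood next to 300, the lowest on that array, and the log2 fold changes were 1.41 for Chic and 1.23 for Fru.

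Srp19, a protein of the signal recognition particle, also turned on 1 array and on the probe. The probe used had 8.49 and 6.83 in Ctr1, 8.53, 8.34 and 8.20 in Chic, 8.53, 8.97 and 8.36 in Fru, 8.94 and 8.59 in Ctr2, 9.01, 8.85 and 8.00 in CGA and 8.73, 8.53 and 8.10 in STL, with log2 fold changes of 0.70 (SE 0.42) for Chic and 0.96 (SE 0.42, adjusted p = 0.665 in limma) for Fru. Its 6.83 on Ctr1 2 came from an intensity of 304, next to 300, the lowest on that array. The second probe had 8.99 and 8.52 in Ctr1 and gave −0.38 and −0.32. An array more than 2 (log2) below the median of the gene occurred for 5 members, Atf4, Sec61a1, Spcs1, Dnajc10 and Hspa9, and for 3.47% of all genes.

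**Figure D5:**
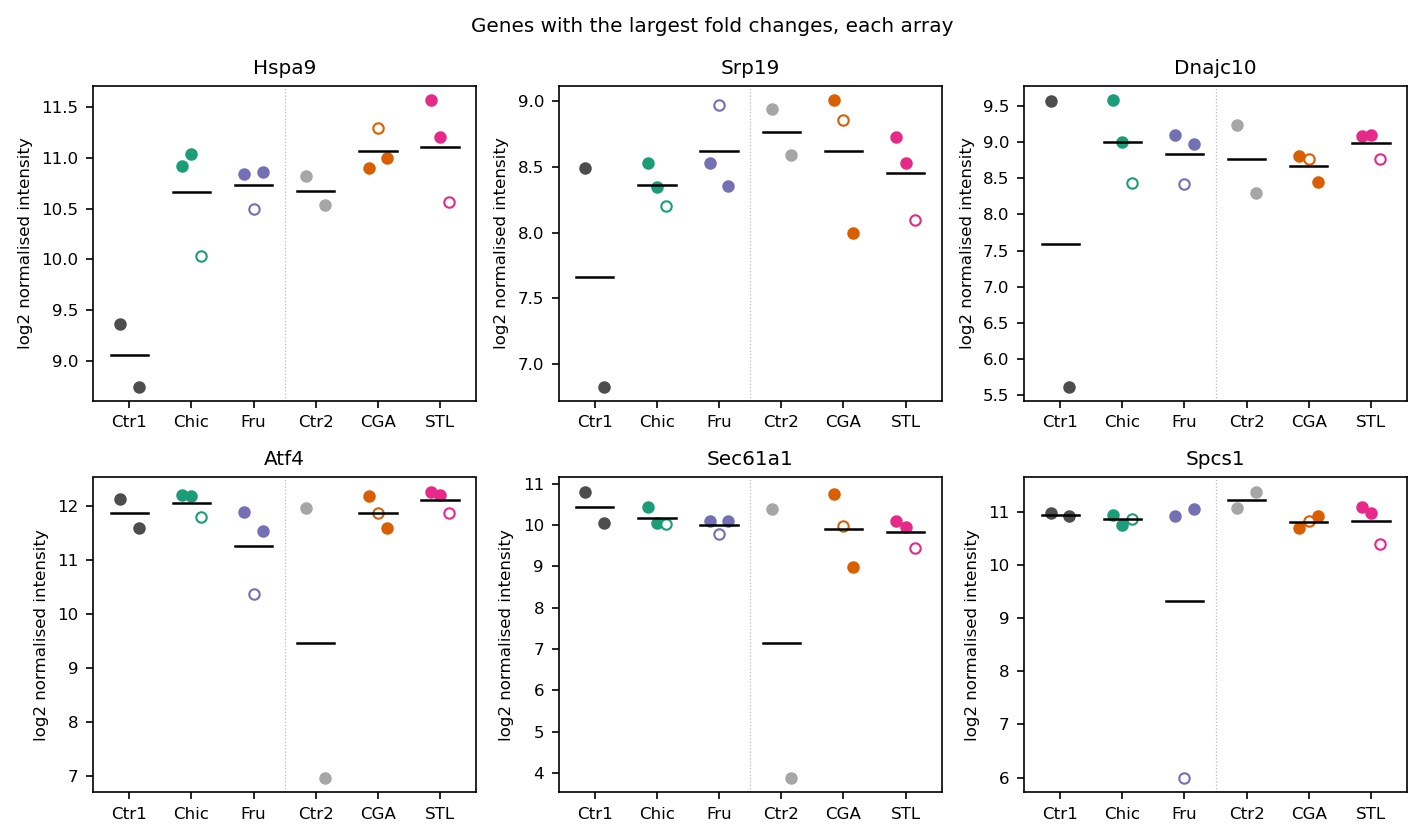
Log2 normalised intensity of the 6 genes with the largest fold changes on each array, by group; open points are dim arrays, bars are group means, and each panel has its own axis. Hspa9 is low on both Ctr1 arrays, while Srp19, Dnajc10, Atf4, Sec61a1 and Spcs1 each have 1 array far below the rest.

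Genes of vesicle coats varied least. Copb2, a subunit of the COPI coat, had the smallest spread of all members, a within-group SD of 0.117, and had 9.79 and 9.90 in Ctr1, 9.92, 10.13 and 9.87 in Chic, 10.10, 10.13 and 9.90 in Fru, 10.30 and 10.12 in Ctr2, 10.06, 10.22 and 10.28 in CGA and 10.14, 10.04 and 9.94 in STL, with log2 fold changes of 0.13, 0.20, −0.03 and −0.17 for Chic, Fru, CGA and STL. Sec24c, which selects cargo for COPII vesicles, had 10.90 and 10.69 in Ctr1, 11.10, 11.20 and 11.04 in Chic, 11.19, 10.47 and 11.26 in Fru, 10.96 and 11.35 in Ctr2, 11.36, 11.27 and 11.43 in CGA and 11.36, 11.45 and 11.21 in STL. All Chic mice lay above Ctr1 (0.32, SE 0.22). Cope, another COPI subunit, had 9.54 and 9.52 in Ctr1, 9.48, 9.15 and 9.28 in Chic, 9.13, 9.73 and 9.05 in Fru, 8.95 and 9.44 in Ctr2, 9.16, 9.11 and 9.38 in CGA and 9.52, 9.59 and 9.15 in STL, with −0.23 (SE 0.23) for Chic. Tmed10, a cargo receptor of early secretory vesicles, had 11.71 and 11.66 in Ctr1, 11.64, 11.60 and 11.43 in Chic, 11.66, 11.13 and 11.66 in Fru, 11.74 and 11.40 in Ctr2, 11.46, 11.46 and 11.67 in CGA and 11.59, 11.84 and 11.56 in STL, with −0.20 (SE 0.20) for Fru. Xbp1, a transcription factor of the unfolded protein response, had 11.55 and 11.24 in Ctr1, 11.42, 11.37 and 11.22 in Chic, 11.52, 11.40 and 11.45 in Fru, 11.17 and 11.93 in Ctr2, 11.26, 11.51 and 11.79 in CGA and 11.67, 11.38 and 11.57 in STL, and its log2 fold changes were −0.06, 0.06, −0.03 and −0.01. The median within-group SD was 0.245 over the coat and Tmed genes, 0.369 over the cytosolic chaperones and 0.296 over all genes.

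For Copa and Srp14 the array holds 10 spots of a single probe, which gives the error of the spots alone. The SD of the spots within an array had a median of 0.140 for Copa, the largest COPI subunit, and of 0.181 for Srp14, a protein of the signal recognition particle. Between mice of a group the SDs of the means over 10 spots were 0.350 and 0.224. An SD of single spots is not on the same scale as an SD of such means. The highest spot SD on any array was 0.256 for Copa and 0.281 for Srp14.

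Partners of the members outside the name rule were read from 5 lists. No gene of a list passed the adjusted threshold in limma in any comparison. Of the heat shock factors and cochaperones 12 of 26 were measured, with a positive log2 fold change in 9 for Chic (median 0.30), 9 for Fru (0.33), 6 for CGA and 5 for STL. At an unadjusted p under 0.05, 3 were higher for Chic (1.8% of all genes), 4 for Fru (4.5%), 0 for CGA and 0 for STL, and none were lower. Ctr2 against Ctr1 had 9 positive (median 0.27) and 3 higher (3.65% of all genes). Ptges3, the HSP90 cochaperone p23, had 10.47 and 9.96 in Ctr1, 10.96, 10.97 and 10.70 in Chic, 11.10, 11.15 and 11.35 in Fru, 11.38 and 10.83 in Ctr2, 11.31, 11.19 and 10.93 in CGA and 11.24, 11.30 and 11.42 in STL, with log2 fold changes of 0.66 (SE 0.21) for Chic and 0.98 (SE 0.21, adjusted p = 0.354 in limma) for Fru. Ahsa1, which activates the HSP90 ATPase, had 9.85 and 9.86 in Ctr1, 10.37, 10.57 and 10.55 in Chic, 10.87, 10.29 and 11.00 in Fru, 10.77 and 10.47 in Ctr2, 10.88, 10.28 and 10.59 in CGA and 10.48, 10.55 and 10.80 in STL, with 0.64 (SE 0.23) and 0.86 (SE 0.23, adjusted p = 0.524). For both genes all Chic, Fru and Ctr2 mice lay above both Ctr1 mice.

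Of the genes of the unfolded protein response and ER degradation 16 of 42 were measured. The log2 fold change was positive in 15 of 16 for Chic (median 0.22), 13 for Fru (0.25), 8 for CGA and 8 for STL. Manf, a secreted ER stress protein, had 8.54 and 8.42 in Ctr1, 9.08, 9.26 and 8.71 in Chic, 9.20, 9.24 and 8.95 in Fru, 9.61 and 9.21 in Ctr2, 9.56, 8.42 and 9.03 in CGA and 8.93, 8.80 and 9.04 in STL, and Fru lay above Ctr1 (0.65, SE 0.28, adjusted p = 0.658 in limma). Derl1, a protein of ER degradation, had 8.32 and 8.71 in Ctr1, 8.83, 8.71 and 8.62 in Chic, 8.87, 9.13 and 8.93 in Fru, 8.89 and 8.92 in Ctr2, 9.03, 8.55 and 8.93 in CGA and 8.66, 8.66 and 8.67 in STL, and Fru again lay above Ctr1 (0.46, SE 0.18). At an unadjusted p under 0.05, 3 genes of this list were higher for Fru (4.5% of all genes) and 0 for Chic, CGA and STL. Ctr2 against Ctr1 had 12 of 16 positive (median 0.23) and 3 higher (3.65% of all genes). For Manf and Derl1 both Ctr2 mice also lay above both Ctr1 mice (0.93, SE 0.30, and 0.39, SE 0.20). All Chic mice lay above Ctr1 for Manf as well (0.53, SE 0.28).

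The remaining lists were closer to 0. Of ER folding and glycosylation partners 20 of 47 were measured, with medians of 0.01, −0.02, −0.13 and −0.06 for Chic, Fru, CGA and STL. Rpn1, a subunit of the oligosaccharyltransferase, had 11.54 and 11.36 in Ctr1, 11.89, 11.79 and 11.61 in Chic, 11.76, 11.88 and 11.93 in Fru, 11.97 and 12.11 in Ctr2, 11.91, 11.65 and 11.83 in CGA and 12.09, 11.86 and 11.83 in STL, with 0.41 (SE 0.16) for Fru. Tmx2, an ER thioredoxin-related protein, had 8.27 and 6.83 in Ctr1, 8.46, 8.22 and 8.38 in Chic, 8.15, 8.40 and 8.73 in Fru, 8.57 and 8.82 in Ctr2, 8.90, 8.77 and 8.33 in CGA and 8.65, 8.80 and 9.07 in STL, with 0.88 (SE 0.33) for Fru, and 1 Ctr1 array lay apart. Rpn1 and Tmx2 were also higher in Ctr2 than in Ctr1, by 0.59 (SE 0.18) and 1.15 (SE 0.37). For Chic they had 0.31 (SE 0.16) and 0.81 (SE 0.33). Of ER to Golgi transport partners 33 of 50 were measured, with medians of −0.04, −0.16, −0.04 and −0.02. Mia3, which loads large cargo at ER exit sites, had 10.49 and 9.82 in Ctr1, 10.17, 9.79 and 9.94 in Chic, 9.72, 9.29 and 9.69 in Fru, 9.59 and 9.79 in Ctr2, 10.06, 9.73 and 9.77 in CGA and 9.54, 9.73 and 10.01 in STL, with −0.59 (SE 0.23) for Fru, where the dim array was lowest. Arfgap3, which acts on the Arf GTPases of Golgi coats, had 9.76 and 9.71 in Ctr1, 9.60, 9.57 and 9.83 in Chic, 9.73, 3.28 and 9.39 in Fru, 9.70 and 2.78 in Ctr2, 10.24, 10.09 and 9.35 in CGA and 10.03, 9.66 and 9.32 in STL, with single low arrays in Ctr2 and Fru. Of the chaperonin partners 6 of 15 were measured, with medians of 0.02, 0.15, 0.00 and −0.06 and none at an unadjusted p under 0.05 in a diet. Among them Pfdn6, a prefoldin subunit, had 8.80 and 8.78 in Ctr1, 8.85, 8.85 and 8.85 in Chic, 8.77, 9.85 and 9.20 in Fru, 9.21 and 8.71 in Ctr2, 8.57, 8.46 and 8.40 in CGA and 8.69, 8.77 and 8.77 in STL, with −0.48 (SE 0.25) for CGA, and Tcp1, a subunit of the chaperonin ring, had 9.99 and 9.30 in Ctr1, 9.83, 9.91 and 8.74 in Chic, 10.01, 8.62 and 10.12 in Fru, 9.91 and 9.27 in Ctr2, 8.71, 9.33 and 9.18 in CGA and 9.74, 9.47 and 8.45 in STL, with −0.51 (SE 0.51).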

How the data were processed

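RNA of 16 caecum samples was measured on one-colour Agilent arrays, which the submitters' notes say were read with Agilent Feature Extraction (version not given in the sources used here). The deposited values are intensities per spot. The methods name quantile normalisation, but the deposited intensities have array medians of 186 to 1687, so they were taken as not normalised between arrays. All 99424 caecum values equal those of the series matrix. Here 227 control rows were left out, 23 intensities at or below 0 were set missing (none of a member), and values were quantile-normalised and log2-transformed. Of the 6214 rows 878 had no symbol. Symbols were updated through RefSeq accessions for 110 rows, spots of 1 probe were averaged, and each of the 3779 genes is represented by its brightest probe on average.

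All groups were fitted together with limma 3.58.1 (R 4.3.3), with Benjamini-Hochberg adjustment over all genes and a threshold of 0.05. The fit was tested on simulated data. Python 3.11.15, pandas 2.3.3, numpy 2.4.6 and matplotlib 3.10.9 were used for summaries and plots. Groups came from the labels. The p-values set a difference of group means against the spread between mice within groups. That spread is pooled over all groups and moderated over all genes. The genes named are Sec11a, the 3 with the largest moderated statistic per diet and direction, the 2 with the largest absolute statistic per class and per partner list, and any that passed. Calr, Canx, Pdia3, Hsp90aa1, Hsp90ab1, Hspd1, Hspe1, Dnajc10, Sec11c, Copa, Srp14 and the other chaperonin subunits were named after their values were seen. The members and lists were chosen with earlier results of these data known. Alternatives covered normalisation, probe choice, filters, the fit, the control group, array weights and single arrays left out. The liver and ileum arrays were not used here. The series design names colon among the tissues taken, and the tissue is called caecum here as in the labels.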

Additional observations from a re-analysis of the deposited data

How the results depend on the processing

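Each result was recomputed under 11 settings and with each of the 16 arrays left out in turn; the setting without the 4 dim arrays, and the medians of the ERSE genes, were chosen after seeing the data. The number of members passing the adjusted threshold in limma was 0 in every comparison and became 1 for Chic with array weights and 1 without the dim arrays (Hspa9 in both), and 1 for Fru by the study's threshold. Leaving out 1 array gave 0 to 2 for Chic, 0 to 3 for Fru, 0 to 2 for CGA, 0 to 2 for STL and 0 to 2 for Ctr2. These calls came where a single control mouse was left: Dnajc10, Hspa9 and Srp19 without Ctr1 replicate 1, and Atf4 and Sec61a1 without Ctr2 replicate 1. The lone mouse is then assumed to vary like the other groups. Over all genes, leaving out 1 array gave 0 to 40 for Chic, 0 to 44 for Fru, 0 to 22 for CGA, 0 to 20 for STL and 0 to 38 for Ctr2, against 0 for all but Fru, which had 1. For Chic the number over all genes was 2 with array weights and 2 without the dim arrays, and 1 with the dimmest genes left out. For Fru it was 0 before normalisation, with only the groups compared, with pooled controls, with the replicate block and without the dim arrays.

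The shift of cytosolic against ER and Golgi members ranged, with 1 array left out, over −0.027 to 0.25 for Chic, 0.041 to 0.28 for Fru, −0.12 to 0.028 for CGA, −0.065 to 0.15 for STL and −0.077 to 0.34 for Ctr2. For STL it was −0.10 with the dimmest genes left out and −0.072 without the dim arrays, against 0.053. The log2 fold change of Sec11a ranged over 0.35 to 0.50 for Chic, 0.35 to 0.63 for Fru, −0.23 to −0.06 for CGA, −0.46 to −0.22 for STL and 0.48 to 0.62 for Ctr2. It changed sign for Fru before normalisation (−0.066) and for CGA with pooled controls (0.13). Before normalisation the sign also changed for Fru in Dnajb11 (−0.086), Dnajc15 (−0.028) and Srp19 (−0.45). Srp19 for Fru was −0.33 without Ctr2 replicate 2 and −0.51 without the dim arrays, and for Ctr2 against Ctr1 −0.42 without the dim arrays, because its other probe then has the higher mean. Without Ctr2 replicate 2, Atf4 was −0.084 for CGA and 0.10 for Ctr2 against Ctr1, and Sec61a1 −0.50 for CGA and −0.57 for STL. With 1 array left out, Srp19 for Fru ranged over −0.33 to 1.81, Atf4 over −0.084 to 4.95 for CGA and −4.93 to 0.10 for Ctr2 against Ctr1, and Sec61a1 over −0.50 to 6.18 for CGA and −0.57 to 6.12 for STL. Except for Srp19, the cause of these changes beyond the array or setting named was not tested.

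With the replicate number as a block, the count of members called was 0 in all 5 comparisons, the shift was 0.14, 0.17, −0.082, −0.031 and 0.11 for Chic, Fru, CGA, STL and Ctr2, and Sec11a had 0.45, 0.51, −0.11, −0.34 and 0.55. In the main fit the numbers were not taken to pair the mice. Over 36 pairs of arrays with the same number the median correlation of deviations was 0.18, against −0.115 over 70 pairs with other numbers. The lowest of the 36 was −0.41, and 8 of 16 arrays correlated best with their own number. Arrays of the same number thus tended to deviate together, and what they share was not tested. Signal over background could not be set against each spot, since the values used hold 1 intensity per spot.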
